A study of Mus musculus with 13 samples.

Results

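The genes described here are 10 genes of the MHC class I presentation pathway: *H2-K1*, *H2-D1*, *B2m*, *Tap1*, *Tap2*, *Tapbp*, *Nlrc5*, *Psmb8*, *Psmb9* and *Erap1*. They were taken as a list by name and found in the raw count matrix by their Ensembl identifiers, the rule using no measured value, and all 10 were present among its 47937 genes. RNA was sequenced from double negative (DN) thymocytes sorted at the DN3 stage, when the T cell receptor β locus is rearranged and tested, and at the DN4 stage that follows. The question for these genes was whether their transcripts change from DN3 to DN4 and whether deletion of *Opa1*, which encodes a mitochondrial inner membrane protein that shapes cristae, alters them.

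An MHC class I molecule at the cell surface is a heavy chain (H2-K and H2-D in C57BL/6 mice) bound to β2-microglobulin and a short peptide. The proteasome, in which the inducible subunits Psmb8 and Psmb9 can replace constitutive ones, makes the peptides, the TAP transporter moves them into the endoplasmic reticulum, tapasin helps to load them and the aminopeptidase Erap1 trims them. Nlrc5 is a transactivator of the class I genes, and immature thymocytes are known for low surface class I, which rises as they mature.

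The mice were 6 weeks old on a C57BL/6 background. The controls (Wt) were WT;Lck-Cre+ mice and the deleted mice (KO) were Opa1fl/fl;Lck-Cre+ mice, so that every animal carried the Cre transgene, driven by the promoter of *Lck*, a kinase of the T lineage. There were 3 DN3 Wt, 4 DN4 Wt, 3 DN3 KO and 3 DN4 KO libraries. The same genotype and number in the labels was taken to mark the same mouse, which gives 7 mice, 6 of them with both stages. Mice are called here by genotype and number as in the labels (KO45, KO49, KO51, WT05, WT40, WT46, WT48), and WT40 gave only DN4.

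The libraries held 5926848 to 14148661 counts assigned to genes, and each member had between 212 and 20557 counts in each library. The stage labels were met by their markers: the summed level of 6 DN3 markers was 2795 to 3750 CPM (counts scaled to a common library size) in DN3 and 564 to 843 CPM in DN4. *Opa1* itself did not separate the genotypes, with a mean of 90.6 ± 2.79 CPM (SD, n = 3) in DN3 KO against 98.3 ± 11.7 (n = 3) in DN3 Wt, and 82.1 ± 5.53 (n = 3) in DN4 KO against 89.0 ± 3.92 (n = 4) in DN4 Wt. A count over the whole gene does not show whether the floxed part is present in the transcript. At the protein level, the study reported less OPA1 in lysates of KO thymocytes by immunoblot, and its images showed fragmented mitochondria. The DN3 library of WT05 stood apart, with 27.1% of its counts in 9 rRNA-like genes against 0.346% to 1.38% in the others, and it gave the lowest DN3 value of 8 of the 10 members. The DN4 libraries also held B cell RNA: 10 B cell markers, *Cd79a* and *Ms4a1* among them, summed to 297 to 438 CPM in DN3 and to 1459 to 12150 CPM in DN4, and all 10 were higher in DN4 in both genotypes. The study gated DN subsets on lineage-negative cells in its cytometry, a gate that would remove B cells if it held a B cell marker, and the gate of the cells sorted for RNA is not given in the sources used here.

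Most members lie in the MHC on chromosome 17 (gene bodies in GRCm38 coordinates of GENCODE M21). *H2-K1* (chr17:33996017-34000347, minus strand) and *H2-D1* (chr17:35262730-35267499, plus strand) encode the heavy chains. *Tap1* (chr17:34187553-34197225) and *Psmb9* (chr17:34181987-34187764) are divergent neighbours whose annotated 5′ ends overlap, followed by *Psmb8* (chr17:34197721-34201454) and *Tap2* (chr17:34203527-34216321), with *Tapbp* at chr17:33915899-33929292. *B2m* (chr2:122147686-122153083), *Erap1* (chr13:74639568-74693201) and *Nlrc5* (chr8:94434356-94527272) lie outside it.

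The letters before 2 of the starts are shown, those of *H2-K1*, a heavy chain gene that rose from DN3 to DN4 in Wt, and of *B2m*, the gene of its partner chain, which did not pass the test. Both are RefSeq promoter sequence of GRCm38.p6, read 5′ to 3′ along the gene's strand and ending before the start. Capitals mark matches to 5 short motifs searched on both strands: the IRF half-site pair GAAANNGAA, the NF-kappaB motif GGGNNTTCC, the CRE core TGACG, the CCAAT box with the letters CCAAT and the GC box with the letters GGGCGG. None of the 5 strings contains another.
H2-K1, chr17:34000348-34000547, minus strand: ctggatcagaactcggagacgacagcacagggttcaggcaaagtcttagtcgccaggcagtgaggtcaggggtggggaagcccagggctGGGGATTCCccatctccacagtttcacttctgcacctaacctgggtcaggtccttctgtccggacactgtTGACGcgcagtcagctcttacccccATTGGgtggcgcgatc
B2m, chr2:122147537-122147685, plus strand: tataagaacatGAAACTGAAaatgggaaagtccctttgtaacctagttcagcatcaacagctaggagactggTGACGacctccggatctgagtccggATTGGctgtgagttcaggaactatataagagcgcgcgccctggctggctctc

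Both stretches held a CRE core followed by a reversed CCAAT box, the *H2-K1* stretch an NF-kappaB match and the *B2m* stretch a match to the IRF string. That string fixes the order and spacing of the IRF half-sites, and other orders or spacings were not searched. Promoter sequence without a match, that of *H2-K1* included, may thus still hold IRF half-sites in another arrangement. RefSeq windows of 250 bases before and 50 after the start were matched for 8 of the 10 members. A CCAAT box was found in 6 of the 8 (*H2-K1*, *H2-D1*, *B2m*, *Tap1*, *Tapbp*, *Psmb9*) against 37.4% of all 32851 windows, and a CRE core in 5 of the 8 (the same genes without *Tapbp*) against 20.8%. The NF-kappaB motif was found for *H2-K1* and *H2-D1* (5.82% of all windows) and the IRF pair for *B2m* and *Erap1* (8.56% of all windows). A GC box was in 4 of the 8 (*Tap1*, *Tapbp*, *Psmb9*, *Erap1*) against 35.7%. The starts of *Tap1* and *Psmb9* lie 226 bases apart on opposite strands, so their windows share most of their letters and are not 2 independent counts. A match is a string of letters and was not tested for binding.

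From DN3 to DN4 in Wt, 3 of the 10 members rose, the heavy chain *H2-K1*, the tapasin gene *Tapbp* and *Nlrc5*, and none fell, where 13.4% of the 12691 genes tested were called higher in DN4 (edgeR quasi-likelihood test, Benjamini-Hochberg over all genes tested). The same comparison in KO called 1 of the 10, *Nlrc5*, against 11.4% of 12580 genes. The median log2 change of the members was 0.54 in Wt and 0.35 in KO, and that of all genes tested was -0.03 and -0.02. With the mouse as a block, which sets each DN4 library against the DN3 library of the same animal, 5 of the 10 members were higher in DN4 in each genotype, *H2-K1*, *H2-D1*, *Tap1*, *Tapbp* and *Nlrc5*. The share of all genes called higher in that fit was 12.3% in Wt and 19% in KO. Levels of the members are given in CPM on library sizes scaled by TMM, a normalization that sets libraries level over most genes.

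**Figure D1:**
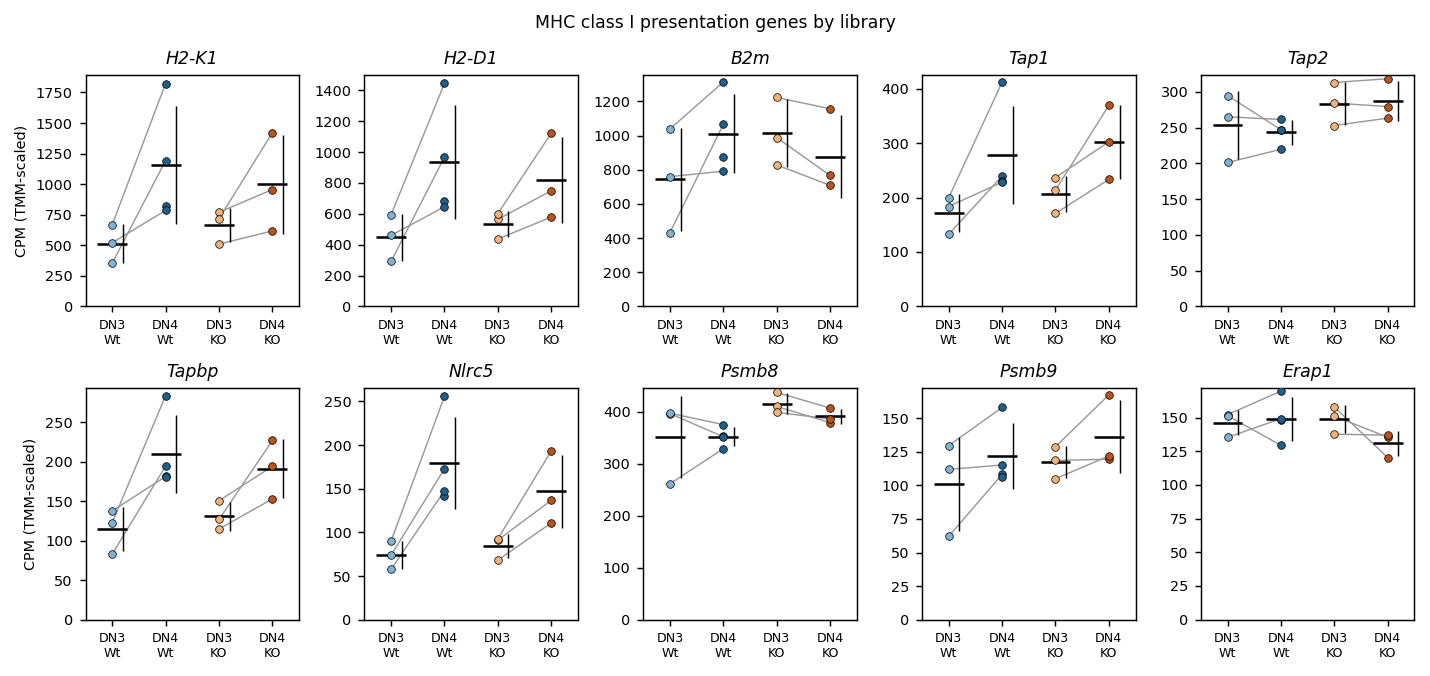
Level of each of the 10 members in each library, in TMM-scaled CPM on a linear axis from 0, for the 4 groups of stage and genotype. Points are libraries, grey lines join the libraries of 1 mouse, the horizontal bar is the group mean and the vertical bar its SD; *Nlrc5* runs from 57.7 to 92.5 CPM in DN3 and from 111 to 256 CPM in DN4, while *Tap2* runs from 201 to 319 CPM over both stages.

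*H2-K1*, the K heavy chain, was at 353, 521 and 668 CPM in the DN3 Wt libraries of WT05, WT46 and WT48 and at 1193, 819, 785 and 1823 CPM in the DN4 libraries of WT05, WT40, WT46 and WT48. All DN4 Wt libraries lay above all DN3 Wt libraries, and WT48 was the highest. The log2 change was 1.14 ± 0.34 (SE, adjusted p = 0.0445, edgeR), and 1.24 ± 0.25 (adjusted p = 0.00883) with the mouse as a block. In KO, the values in KO45, KO49 and KO51 were 770, 716 and 509 CPM in DN3 and 956, 1421 and 618 CPM in DN4. These groups overlapped, since the DN4 library of KO51 lay below 2 of the DN3 libraries, although each mouse was higher in DN4. The log2 change in KO was 0.56 ± 0.29 (adjusted p = 0.227) and passed with the block at 0.50 ± 0.15 (adjusted p = 0.0378). With 1 library left out, it ran from 0.21 without the DN4 library of KO49 to 0.79 without that of KO51.

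*H2-D1*, the D heavy chain, followed the same order of libraries as *H2-K1* within DN4. It was at 291, 460 and 593 CPM in DN3 Wt (WT05, WT46, WT48) and at 967, 680, 646 and 1445 CPM in DN4 Wt (WT05, WT40, WT46, WT48). The stages did not overlap in Wt, and the log2 change of 1.04 ± 0.34 just missed the threshold (adjusted p = 0.0615) and passed with the block (1.14 ± 0.25, adjusted p = 0.0141). In KO it was at 564, 601 and 437 CPM in DN3 and at 750, 1122 and 578 CPM in DN4 (KO45, KO49, KO51). There the groups overlapped by 1 library, with a log2 change of 0.59 ± 0.24 (adjusted p = 0.132), or 0.55 ± 0.11 (adjusted p = 0.00401) with the block, and from 0.29 without the DN4 library of KO49 to 0.77 without that of KO51. The heavy chains share sequence with other class I genes. Of the stretches of 50 bases, 9.63% in *H2-K1* transcripts and 12.8% in *H2-D1* transcripts occurred in another gene, among them *H2-Q7* and each other. Reads within such stretches may have been counted for another gene or left uncounted, and how they were handled is not given in the sources used here.

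*B2m*, the light chain shared by all class I molecules, did not pass the test in either genotype. It was at 431, 760 and 1038 CPM in DN3 Wt (WT05, WT46, WT48) and at 1065, 874, 791 and 1313 CPM in DN4 Wt (WT05, WT40, WT46, WT48), groups that overlapped. In KO it was at 988, 1223 and 828 CPM in DN3 and at 766, 1157 and 709 CPM in DN4 (KO45, KO49, KO51). All 3 KO mice were thus lower in DN4, with log2 changes of -0.37, -0.08 and -0.23 in KO45, KO49 and KO51. All 3 Wt mice with both stages were higher, with log2 changes of 1.31, 0.06 and 0.34 in WT05, WT46 and WT48. The edgeR log2 change was 0.42 ± 0.29 in Wt (adjusted p = 0.353) and -0.23 ± 0.22 in KO (adjusted p = 0.503), and without the DN3 library of WT05 the Wt value was 0.13 ± 0.22. With 1 library left out, the KO value ran from -0.49 without the DN4 library of KO49 to -0.096 without its DN3 library. The difference between the genotypes in this change was -0.65 ± 0.41 (adjusted p = 1.0 for the interaction of stage and genotype).

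*Tap1* and *Tap2* encode the subunits that together form the peptide transporter. *Tap1* was at 133, 184 and 200 CPM in DN3 Wt (WT05, WT46, WT48) and at 239, 231, 228 and 412 CPM in DN4 Wt (WT05, WT40, WT46, WT48), with no overlap. Its log2 change was 0.67 ± 0.25 in Wt (adjusted p = 0.0897, or 0.0280 with the block) and 0.52 ± 0.20 in KO (adjusted p = 0.107, or 0.00281 with the block). With 1 library left out, the *Tap1* change ran from 0.41 to 0.78 in Wt and from 0.34 to 0.66 in KO. *Tap2* was between 201 and 319 CPM in all 13 libraries, with a log2 change of -0.09 ± 0.14 in Wt (adjusted p = 0.720) and -0.01 ± 0.13 in KO (adjusted p = 0.969). In all 6 mice *Tap1* was higher in DN4, by 0.31 to 1.05 on the log2 scale, and *Tap2* was higher in 3 of 6. A test of *Tap1* against *Tap2* was not run.

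*Tapbp* encodes tapasin, which bridges TAP and the class I heavy chain. It was at 83.1, 138 and 123 CPM in DN3 Wt (WT05, WT46, WT48), and at 194, 181, 181 and 283 CPM in DN4 Wt (WT05, WT40, WT46, WT48). In KO it was at 151, 127 and 115 CPM in DN3 and at 194, 227 and 153 CPM in DN4 (KO45, KO49, KO51). The stages overlapped in neither genotype, although in KO the highest DN3 library (KO45) and the lowest DN4 library (KO51) were close. The log2 change was 0.85 ± 0.22 in Wt (adjusted p = 0.0268) and 0.52 ± 0.17 in KO (adjusted p = 0.0735, or 0.00391 with the block).

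*Nlrc5*, the transactivator, had the largest log2 change of the 10 members in both genotypes. It was at 73.7, 57.7 and 90.0 CPM in DN3 Wt (WT05, WT46, WT48) and at 173, 142, 148 and 256 CPM in DN4 Wt (WT05, WT40, WT46, WT48). The KO values were 91.1, 92.5 and 68.2 CPM in DN3 and 137, 193 and 111 CPM in DN4 (KO45, KO49, KO51). All DN4 libraries of either genotype exceeded all DN3 libraries of either genotype. The log2 change was 1.26 ± 0.24 in Wt (adjusted p = 0.00757) and 0.78 ± 0.22 in KO (adjusted p = 0.0394), and with the block 1.34 ± 0.15 (adjusted p = 5.75e-04) and 0.76 ± 0.11 (adjusted p = 3.70e-04).

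*Erap1*, the trimming aminopeptidase, was between 120 and 170 CPM in all 13 libraries. Its log2 change was 0.00 ± 0.12 in Wt (adjusted p = 0.990) and -0.21 ± 0.12 in KO (adjusted p = 0.244), and in KO all 3 DN4 libraries (120, 135 and 137 CPM) lay below the 3 DN3 libraries (158, 151 and 138 CPM).

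Groups that did not overlap were counted over all members too. *Erap1* was the 1 member whose DN4 KO libraries all lay below the DN3 KO libraries, against 16.7% of the genes tested. All DN4 Wt libraries lay above all DN3 Wt libraries for 5 of the 10 members, *H2-K1*, *H2-D1*, *Tap1*, *Tapbp* and *Nlrc5*, against 20% of the genes tested, and in KO this held for 2 of the 10, *Tapbp* and *Nlrc5*, against 22%. Within mice, 6 members were higher in DN4 in 6 of 6 mice, those 5 and *Psmb9*, as were 21.9% of 13361 genes.

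**Figure D2:**
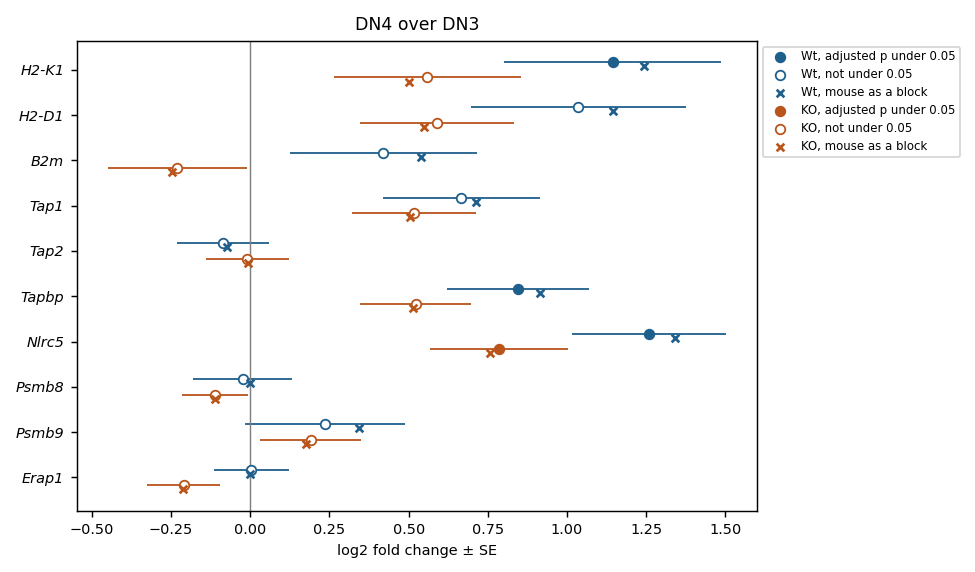
Log2 fold change of each member from DN3 to DN4, with its SE, in Wt (blue) and KO (orange); filled points passed an adjusted p of 0.05 in the edgeR fit, open points did not, and crosses are the values with the mouse as a block. *Nlrc5* is filled in both genotypes, at 1.26 and 0.78, and *H2-K1* and *Tapbp* in Wt.

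The inducible proteasome subunits did not pass the test between the stages. *Psmb8* was between 262 and 438 CPM in all libraries, the lowest being the DN3 library of WT05, with a log2 change of -0.02 ± 0.16 in Wt (adjusted p = 0.935) and -0.11 ± 0.11 in KO (adjusted p = 0.499). *Psmb9* was at 62.0 CPM in the DN3 library of WT05, at 112 and 130 CPM in the other DN3 Wt libraries and at 106 to 158 CPM in DN4 Wt. Its log2 change was 0.24 ± 0.25 in Wt (adjusted p = 0.555) and 0.19 ± 0.16 in KO (adjusted p = 0.443). The third inducible subunit, *Psmb10*, and the constitutive subunits that the 3 replace, *Psmb5*, *Psmb6* and *Psmb7*, had log2 changes of 0.04, 0.02, 0.03 and 0.10 in Wt and -0.02, -0.19, -0.02 and -0.06 in KO, and none was called.

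Per kilobase of transcript, *Psmb8* was 2.06 to 3.51 times as abundant as *Psmb5* over the 13 libraries, *Psmb9* 0.321 to 0.795 times as abundant as *Psmb6*, and *Psmb10* 0.448 to 0.803 times as abundant as *Psmb7*. These ratios are taken within a library and do not depend on the scaling between libraries. From DN3 to DN4 within 6 mice, the mean change of the log2 ratio was 0.04 ± 0.15 (SD) for *Psmb8* to *Psmb5*, 0.28 ± 0.27 for *Psmb9* to *Psmb6* and 0.05 ± 0.34 for *Psmb10* to *Psmb7*. The exact two-sided sign-flip test over the 6 mice, whose smallest possible p is 0.03125, gave p = 0.531, 0.0625 and 0.688 in that order, adjusted over the 9 tests of ratios to 0.743, 0.514 and 0.743. With 9 tests adjusted together, a single ratio at its smallest possible p would not pass 0.05. The adjusted p thus cannot decide on 1 ratio alone. The ratios of *Psmb8*, *Psmb9* and *Psmb10* were higher in DN4 in 5, 5 and 4 of the 6 mice in that order. Between genotypes no ratio passed the exact permutation test, which cannot go below 0.1 in DN3: the KO minus Wt differences were 0.09 to 0.30 in DN4 and 0.16 to 0.21 in DN3, with adjusted p of 0.514 or more.

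**Figure D3:**
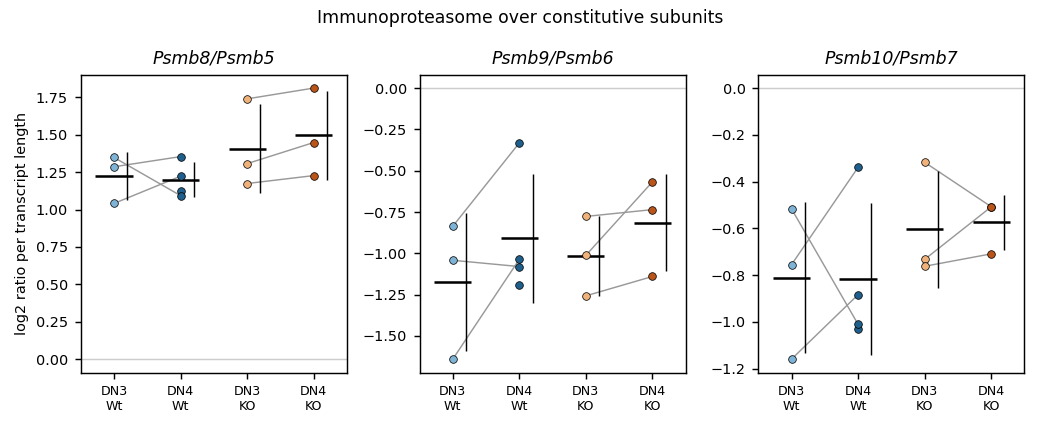
Log2 ratio of each inducible proteasome subunit to the constitutive subunit it replaces, per transcript length, in each library; grey lines join the libraries of 1 mouse, horizontal bars are means and vertical bars SDs. The ratios of *Psmb8*, *Psmb9* and *Psmb10* are higher in DN4 in 5, 5 and 4 of 6 mice, and the grey level line marks equal abundance.

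On a scale per kilobase of the principal transcript, where levels of different genes can be compared, the order in DN4 Wt was *B2m* (1175 ± 270 CPM per kilobase, SD, n = 4), *H2-K1* (714 ± 298), *H2-D1* (445 ± 176), *Psmb8* (217 ± 11.7), *Tap1* (94.1 ± 30.4), *Psmb9* (90.1 ± 18.1), *Tapbp* (72.5 ± 17.01), *Tap2* (70.8 ± 5.06), *Erap1* (26.4 ± 2.91) and *Nlrc5* (23.7 ± 6.94). The means of *H2-K1* and *H2-D1* differed by less than the larger of their SDs, as did neighbours from *Tap1* to *Tap2* and *Erap1* with *Nlrc5*. These SDs are between libraries. Within each library *H2-K1* lay above *H2-D1*, for example at 485 against 307 CPM per kilobase in DN4 of WT46 and 1126 against 687.5 in DN4 of WT48. In each DN4 Wt library *Psmb9* also lay above *Tapbp*, while the other pairs named changed order between DN4 Wt libraries. In DN3 Wt the light chain was at 864 ± 353 CPM per kilobase (n = 3) and the heavy chains at 317 ± 97.5 and 213 ± 71.9.

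Several members ranked in DN4 with the amount of other RNA in a library. The 3 DN4 libraries with the highest summed B cell markers were WT48 (12150 CPM), KO49 (7517 CPM) and WT05 (6279 CPM), ahead of KO45 (4630 CPM), WT46 (2129 CPM), WT40 (1759 CPM) and KO51 (1459 CPM). For 5 of the 10 members, *H2-K1*, *H2-D1*, *B2m*, *Tapbp* and *Nlrc5*, the same 3 libraries were the highest of the 7 DN4 libraries, and KO51 was the lowest for each of them. For *Tapbp*, KO45 was level with WT05 at 194 CPM. For the other 5 members the 3 highest DN4 libraries were not these. The same 3 libraries were also the highest in summed mature T markers (WT48 at 1443 CPM, WT05 at 1100 CPM and KO49 at 853 CPM, with KO51 lowest at 512 CPM). They were the lowest in summed DN4, immature single positive and double positive markers (571, 962 and 1105 CPM in WT48, WT05 and KO49, against 1384 to 3362 CPM in the others). Without these 3 libraries, a setting chosen after seeing the data, 1 of the 10 members passed in Wt, *Nlrc5* (log2 change 0.95 ± 0.19, adjusted p = 0.0264), where 8.54% of all genes were called higher. In Wt the other log2 changes were then 0.62 ± 0.26 for *H2-K1* (adjusted p = 0.191), 0.54 ± 0.28 for *H2-D1*, 0.40 ± 0.19 for *Tap1* and 0.64 ± 0.21 for *Tapbp* (adjusted p = 0.117). In KO, where 1 library was then missing, none passed and *Nlrc5* was at 0.53 ± 0.18 (adjusted p = 0.110), beside 7.60% of all genes called higher.

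With the B cell marker level as a covariate, also added after seeing the data, no member passed in either genotype. Of all genes, 347 of 12691 were called higher in Wt and 0 of 12580 in KO in that fit. *H2-K1* was at -0.47 in Wt and -1.07 in KO. The B cell marker level did not overlap between the stages, so the stage and the B cell RNA largely cannot be told apart in such a fit. In bulk RNA, more cells of a type and more RNA per cell cannot be told apart either. In these 3 libraries B cell and mature T markers were thus high and DN4 to double positive markers low, and the part of each in the stage differences was not tested.

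Other marker lists were read the same way. Over all genes tested, 13.4% were called higher and 9.40% lower in Wt, and 11.4% and 7.38% in KO. Of 8 natural killer and innate lymphoid markers 7 were tested, of which 4 were higher in DN4 in Wt and 5 in KO; they summed to 235 to 465 CPM in DN4 and 242 to 327 CPM in DN3, where *Klrb1c* and *Ncr1* were at 0. Of 5 plasmacytoid dendritic markers 4 were tested and 2 were higher in each genotype, *Ccr9* and *Irf8*, while *Bst2* was lower in KO (-0.76) and at -0.71 in Wt and *Tcf4* was at -0.46 in Wt and -0.45 in KO, with sums of 523 to 983 CPM in DN4 and 258 to 463 CPM in DN3, where *Siglech* was at 0. Of 6 mature T markers 3 were higher and 1 lower in each genotype, with sums of 512 to 1443 CPM in DN4 and 489 to 1019 CPM in DN3. Of 6 gamma delta T markers 3 were higher and 2 lower in Wt and 1 higher and 3 lower in KO, with sums of 707 to 2085 CPM in DN4 and 1066 to 2061 CPM in DN3. Myeloid markers summed to 12.3 to 22.4 CPM in DN4 and 23.8 to 32.2 CPM in DN3, where *S100a8* and *S100a9* were at 0, and stromal markers to 118 to 246 CPM and 112 to 190 CPM with *Foxn1* at 0 throughout; in each of these lists 1 gene was lower in both genotypes, *Lyz2* and *Epcam*. All 6 DN4, immature single positive and double positive markers were higher in both genotypes, with sums of 571 to 3362 CPM in DN4 and 141 to 254 CPM in DN3. The part of any of these in the members' values was not tested.

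**Figure D4:**
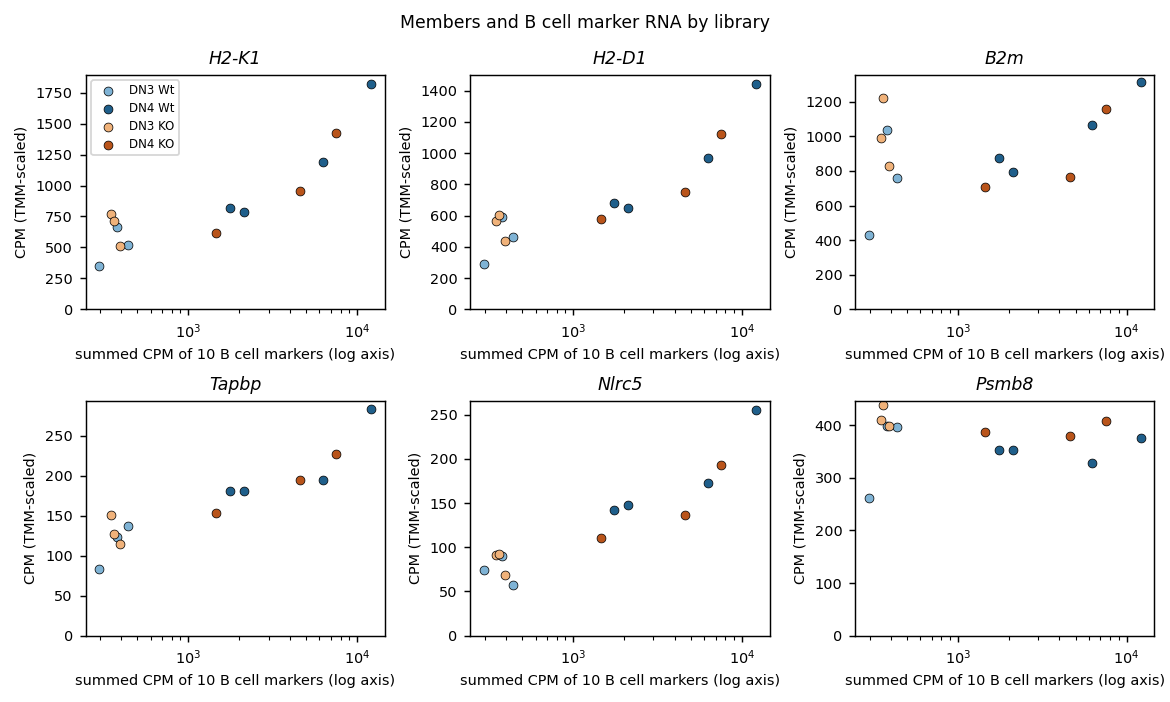
Level of 6 members in each library (TMM-scaled CPM, linear axis from 0) against the summed CPM of 10 B cell markers (log axis), coloured by stage and genotype. In *H2-K1*, *H2-D1*, *B2m*, *Tapbp* and *Nlrc5* the highest DN4 library is WT48, at 12150 CPM of markers, and the lowest is KO51, at 1459 CPM of markers, while *Psmb8* is between 329 and 408 CPM in DN4.

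Single libraries also carried calls. In Wt, the call of *H2-K1* was lost without the DN3 library of WT05 (0.92 ± 0.38, adjusted p = 0.129), WT46 or WT48 or the DN4 library of WT05 or WT48, and that of *Tapbp* without the DN3 library of WT48 or the DN4 library of WT05. The Wt call of *Nlrc5* was kept with any 1 library left out. Over all 16 alternative settings in Wt, those of processing included, *H2-K1* was called in 8, *Tapbp* in 12 and *Nlrc5* in 15. In KO, the call of *Nlrc5* was lost without any 1 library other than the DN4 library of KO51, and without that library 5 members passed, beside 13.2% of all genes called higher.

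No member differed between KO and Wt by the test at either stage. In DN4, 0 of the 10 members were called between KO and Wt, against 0.0611% of 13084 genes (8 genes), and DESeq2 and limma-voom called none of the members. The log2 differences (KO over Wt) ran from -0.26 ± 0.24 for *Nlrc5* to 0.27 ± 0.11 for *Tap2*, with adjusted p of 0.901 to 0.990 in edgeR. With 1 library left out, *Nlrc5* ran from -0.48 to -0.049 and *Tap2* from 0.18 to 0.35. At an unadjusted p under 0.05, 1 member passed in edgeR, 2 in DESeq2 and 1 in limma-voom, beside 714, 765 and 689 of 13084 genes in that order. The member in edgeR was *Tap2*, which was at 319, 263 and 280 CPM in DN4 KO (KO45, KO49, KO51) and at 220, 246, 247 and 262 CPM in DN4 Wt (WT05, WT40, WT46, WT48). These groups did not overlap, and neither did those of *Psmb8* (380 to 408 CPM in DN4 KO and 329 to 376 CPM in DN4 Wt). All KO libraries lay above all Wt libraries for 2 of the 10 members, against 2.74% of the genes tested in DN4.

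In DN3, 0 of the 10 members were called between KO and Wt, where edgeR called 0% of 12105 genes (150 genes at an unadjusted p under 0.05, and 3 genes called by DESeq2). None of the members passed at an unadjusted p under 0.05, and DESeq2 and limma-voom called none of them. All 10 log2 differences were above 0, from 0.02 ± 0.13 for *Erap1* to 0.44 ± 0.29 for *B2m*, with a median of 0.22 against -0.01 over all genes tested. The adjusted p was 1.0 for each. For 8 of the 10 the lowest value came from the DN3 library of WT05 described above. Without that library the median of the 10 was 0.06, *B2m* was at 0.17, *H2-K1* at 0.16, *H2-D1* at 0.019 and *Tapbp* at 0.0053, *Psmb9* was at -0.041, and none was called. All KO libraries lay above all Wt libraries for 1 member, *Psmb8* (399 to 438 CPM against 262 to 398 CPM), against 3.10% of the genes tested.

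**Figure D5:**
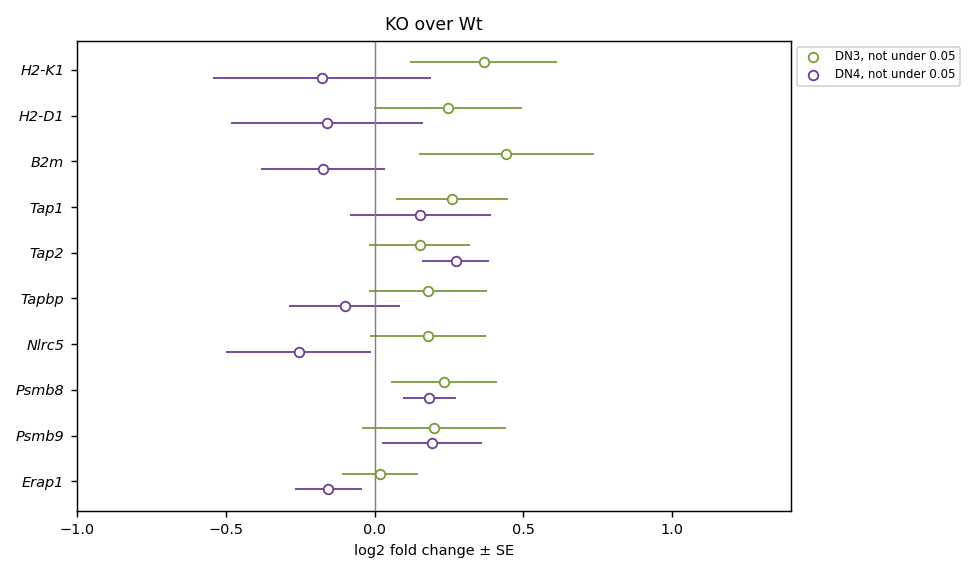
Log2 difference of each member between KO and Wt, with its SE, in DN3 (green) and DN4 (purple); open points did not pass an adjusted p of 0.05 in the edgeR fit. All 10 members are open at both stages, and the points run from -0.26 to 0.44.

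Whether the change from DN3 to DN4 differed between the genotypes was tested as the interaction of stage and genotype: 0 of the 10 members were called, beside 0% of 13361 genes (468 genes at an unadjusted p under 0.05, and 2 called by DESeq2 and 0 by limma-voom), and no member passed at an unadjusted p under 0.05 or by DESeq2 or limma-voom. The interaction values ran from -0.65 ± 0.41 for *B2m* to 0.08 ± 0.20 for *Tap2*, and 9 of the 10 were below 0. With the mouse as a block 0 were called beside 0% of 13323 genes. At an unadjusted p under 0.05, 3 members passed in that fit, *H2-K1* (-0.74 ± 0.31), *B2m* (-0.79 ± 0.29) and *Nlrc5* (-0.58 ± 0.17), as did 681 of the 13323 genes. The adjusted p of these 3 members was 0.907 each. The stage comparisons in Wt and KO share no library with each other.

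Other genes of the pathway were read from lists. Of 42 further class I pathway genes, 41 were tested (all but *H2-Q10*), and 14 were higher and 0 lower in DN4 Wt, where 9.40% of all genes were called lower, with a median log2 change of 0.46. In KO 7 were higher and 0 lower, where 7.38% of all genes were called lower, with a median of 0.35. Without the 3 DN4 libraries richest in B cell RNA, 7 of them were called in Wt and 3 in KO, and with the mouse as a block 17 were higher and 0 lower in Wt and 17 higher and 2 lower in KO. Among the genes called, the largest changes in Wt were those of *Irf8*, an interferon regulatory factor that B cells and plasmacytoid dendritic cells also express (3.18 ± 0.74, adjusted p = 0.0210), of *H2-T24*, a nonclassical class I heavy chain (2.54 ± 0.42, adjusted p = 0.00386), and of *Ifngr2*, a chain of the interferon-γ receptor (1.64 ± 0.25, adjusted p = 0.00232). In KO they were *Irf8* (2.74 ± 0.50, adjusted p = 0.00727), *H2-Q6* (2.18 ± 0.55, adjusted p = 0.0285) and *H2-T24* (2.16 ± 0.52, adjusted p = 0.0235). *H2-Q6* was at 2.75 ± 0.85 in Wt and did not pass there (adjusted p = 0.0568, edgeR). Shared stretches were counted for the members only. How far the *H2-Q6* count rests on reads shared with other Q genes was not measured, so it is uncertain.

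By role, 5 of the 9 nonclassical heavy chain genes tested rose in Wt (*H2-T22*, *H2-T23*, *H2-T24*, *H2-M3*, *Mr1*), as did 5 of 10 genes of interferon receptors and signalling (among them *Ifngr2* and *Jak2*), 3 of 12 transcription factor genes (*Irf2*, *Irf8*, *Nfkb1*) and 1 of 4 loading chaperones, the tapasin-related *Tapbpl*. In KO 4 of the 9 nonclassical heavy chain genes (*H2-Q6*, *H2-T23*, *H2-T24*, *Mr1*), 2 of the 10 interferon receptor and signalling genes (*Ifngr2*, *Jak2*), 1 of the 12 transcription factor genes (*Irf8*) and 0 of the 4 loading chaperones were higher. Over all genes tested, 13.4% were called higher in Wt and 11.4% in KO. None of the genes of the RFX and NF-Y complexes, which bind class I promoters together with Nlrc5, was called: *Rfx5* was at 0.52 in Wt (adjusted p = 0.194) and *Nfya* at -0.24 (adjusted p = 0.145). The proteasome activator genes *Psme1* and *Psme2* were at 0.07 and 0.10 in Wt and were not called.

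Of 28 other subunits of the 20S and 19S proteasome, 1 was lower in DN4 Wt, *Psmd7* (-0.40 ± 0.10, adjusted p = 0.0242), and 0 were called in KO, with median log2 changes of -0.04 and -0.10. With the mouse as a block 0 were called in Wt, *Psmd7* included, and 4 were lower in KO. Of 26 interferon-stimulated genes, 2 were higher in Wt, *Ifit3* (2.69 ± 0.61, adjusted p = 0.0171) and *Zbp1* (1.63 ± 0.33, adjusted p = 0.00915). In KO the same 2 were higher (2.59 ± 0.63, adjusted p = 0.0246, and 1.20 ± 0.35, adjusted p = 0.0486) and *Bst2*, which encodes tetherin, was lower (-0.76 ± 0.13, adjusted p = 0.00548). Their medians were 0.57 in Wt and 0.33 in KO. With the block 10 were higher and 1 lower in Wt, and 11 were higher and 5 lower in KO. In none of these lists was a gene called between genotypes at either stage.

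The members were not all alike across libraries. Over 13 libraries that share stage, depth and B cell RNA as sources of variation, the Pearson correlation of a member with the mean of the 10 standardized log2 CPM values, which includes the member itself, was 0.937 for *H2-D1*, 0.934 for *H2-K1*, 0.926 for *Tap1*, 0.924 for *Psmb9*, 0.893 for *Tapbp*, 0.885 for *B2m* and 0.759 for *Nlrc5*. It was 0.597 for *Psmb8*, 0.355 for *Tap2* and -0.21 for *Erap1*. Among 11111 other protein-coding genes the 5 with the highest correlation to that mean were *Usp18* (0.961), an interferon-induced protease that removes ISG15, *Fam69a* (0.961), *Spi1* (0.958), which encodes the factor PU.1 of B and myeloid cells, *Ifit1bl1* (0.952) and *Zcchc18* (0.948). These values describe the 13 libraries.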

How the data were processed

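DN3 and DN4 thymocytes were sorted and sequenced as 13 poly(A) libraries with a strand-marking kit. The authors deposited raw counts per gene, not normalized; the submitters' processing notes name STAR, featureCounts, DESeq2, deepTools and build mm10, and the counting's use of strand is not given in the sources used here, so reads of genes that overlap on opposite strands (*Tap1* and *Psmb9*, *B2m* and *Patl2*, *Erap1* and *Cast*) may not be told apart. Identifiers were matched to GENCODE M21 without version (47310 of 47937 genes). Replicates were different mice of a group.

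Genes were filtered with filterByExpr (minimum count 10), scaled by TMM and tested with the robust quasi-likelihood test of edgeR 4.0.16 on the groups compared, with Benjamini-Hochberg adjustment over all genes tested and a threshold of 0.05; the interaction was fitted over all 13 libraries. The fits were tested on simulated data. Log2 CPM used a prior count of 2. Alternatives were DESeq2 1.42.0 and its size factors, limma-voom 3.58.1, no filter, rRNA-like genes left out, 1 fit over 13 libraries, omission of single libraries, a block for mouse and, added after seeing the data, 2 settings for B cell RNA. The pairing of DN3 with DN4 by mouse was read from the library titles, where the same genotype and number was taken to mark the same animal. The correlations of the paired libraries' deviations from the group means over 13361 genes were 0.124 to 0.460. Correlations of mismatched libraries were not computed for comparison.

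All 10 members were named. From the other pathway lists the genes past the threshold with the largest change were named, up to 3 in each direction and comparison; other genes named by role were chosen after their values were seen. The 5 genes most like the members were taken among protein-coding genes with a mean of 1 CPM or more, a floor set after seeing the data. Members and lists were chosen with earlier results of these data known. Depth was 5926848 to 14148661 counts per library, and intervals from counts would cover counting error only. Values of some single genes of the lists are not reported here.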

Additional observations from a re-analysis of the deposited data

Results flagged for a closer look

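In the group of 4 DN4 Wt libraries the highest value stood apart from the rest for 2 members, both in the library of WT48, which also held the most B cell marker RNA (12150 CPM summed). For *Tap1* the gap from 412 CPM to the next library was 0.940 of the range of the group, and for *Tapbp*, at 283 CPM, it was 0.872, both above Dixon's 95% critical value for 4 libraries. About 1 in 20 such groups passes by chance, and groups of 3 were not examined.

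*B2m* moved in opposite directions within the mice of the 2 genotypes: the mean log2 change from DN3 to DN4 was -0.22 in 3 KO mice and 0.57 in 3 Wt mice, a difference of -0.792. It was tested as the interaction of stage and genotype and was not called (-0.65 ± 0.41, adjusted p = 1.0 in edgeR, and -0.79 ± 0.29, adjusted p = 0.907, with the mouse as a block). The Wt mean rests mostly on WT05 (1.31), whose DN3 library held 27.1% rRNA-like counts.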

How the results depend on the processing

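The number of members called from DN3 to DN4 in Wt was 3. It was 5 by DESeq2 (16.2% of all genes called higher), 5 in 1 fit over all 13 libraries (16%) and 5 with the mouse as a block (12.3%). It was 1 without the 3 DN4 libraries richest in B cell RNA (8.54%) and 0 with B cell marker level as a covariate (347 of 12691 genes). With 1 library left out it was 1 to 4, where 1035 of 13055 to 1837 of 13213 genes were called higher. In KO it was 1, against 2 without a filter (7.73%), 2 by DESeq2 (14%), 5 with the block (19%) and 0 by limma-voom (9.90%). It was 0 in KO without the 3 libraries (7.60%) and 0 with the covariate (0 of 12580 genes). With 1 library left out it was 0 to 5 in KO, where 821 of 13170 to 1748 of 13195 genes were called higher. Of the other pathway genes 14 were called in Wt, against 7 without the 3 libraries, 1 with the covariate and 8 to 16 with 1 library left out, and in KO 7, against 13 by DESeq2, 19 with the block, 3 without the 3 libraries, 0 with the covariate and 1 to 14 with 1 library left out. Causes were not tested. The block called no member between genotypes in the interaction.

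With the covariate the log2 change from DN3 to DN4 turned negative in Wt for *H2-K1* (-0.47), *H2-D1* (-0.50), *B2m* (-0.54), *Tap1* (-0.36) and *Psmb9* (-0.45), and in KO for *H2-K1* (-1.07), *H2-D1* (-0.66), *Tap1* (-0.35), *Tapbp* (-0.23), *Nlrc5* (-0.24) and *Psmb9* (-0.32), while *Tap2* in KO became 0.035. Values near 0 changed sign in other settings: *Psmb8* in Wt (0.0045 by limma-voom, 1.0e-04 with the block), *Erap1* in Wt (-8.9e-04 with the block), *Tap2* in KO (2.2e-04 with DESeq2 size factors, 0.0022 without a filter, 8.0e-06 by DESeq2, 0.018 over 13 libraries, 0.046 without the 3 libraries), *H2-D1* between genotypes in DN4 (0.0019 without the 3 libraries) and the *Psmb10* to *Psmb7* ratio (-0.0053 unpaired).

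With 1 library left out, signs changed for the stage change in Wt of *Tap2* (-0.24 to 0.037), *Psmb8* (-0.21 to 0.071), *Psmb9* (-0.022 to 0.45) and *Erap1* (-0.060 to 0.063), and in KO of *Tap2* (-0.12 to 0.084). They also changed between genotypes in DN4 for *H2-K1* (-0.49 to 0.12), *H2-D1* (-0.43 to 0.12) and *Tapbp* (-0.22 to 0.061), and in DN3 for *Psmb9* (-0.041 to 0.42) and *Erap1* (-0.035 to 0.075). In the interaction they changed for *Tap1* (-0.32 to 0.11), *Tap2* (-0.044 to 0.23), *Psmb8* (-0.19 to 0.10) and *Psmb9* (-0.26 to 0.22), and in the *Psmb10* to *Psmb7* ratio (-0.026 to 0.16). Groups of 3 and 4 libraries, and 1 DN3 Wt library of low depth, limit the precision of all of these values.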
